A study of Mus musculus with 18 samples.

Results

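The distal segment of chromosome 7 described here is the stretch chr7:130000001-150000000 of the mouse genome, build GRCm38, in which several genes that differ most between *Sharpin* cpdm and wild-type (WT) thymocytes lie close together. Its members are the genes whose RefSeq start falls in that stretch and that reached 0.5 CPM, the count scaled to the size of the library, in at least 3 of the 18 samples, and 113 such genes are described among 12798 tested in all. The starts of the 113 run from 130.39 to 145.21 Mb, with none beyond. The stretch was chosen by the fold changes between *Sharpin* cpdm and WT samples, so every *Sharpin* cpdm level and fold change against another genotype is given below as a description, without a p-value. The count table held 241 genes in the stretch, of which 10 are predicted genes, 115 others fell under the expression limit and 3 are not reported here. Of the 113 members, 107 are protein coding, and 90 reached 0.5 CPM in all 18 samples. A single member, *Htra1*, passed the limit in *Sharpin* cpdm samples alone, whereas *Kndc1*, *Cd163l1*, *Olfr524*, *Muc2*, *Tnfrsf26* and *Tnfrsf23* passed it without any *Sharpin* cpdm sample, so these 7 had to differ in level between the genotypes. *Btbd16* reached 0.5 CPM in 1 WT, 1 *Hoil* ΔCd4 and 6 *Sharpin* cpdm samples, *Syce1* in 1, 0 and 4, and *Ifitm2* in 1, 0 and 2. Without the *Sharpin* cpdm samples these genes would have fallen under the limit, which therefore favoured a higher level there. At the edge of the expression limit, the third-highest level among the 18 samples was 0.503 CPM for *Ifitm2* and 0.541 CPM for *Muc2*, just inside, and 0.440 CPM for *1500002F19Rik* and 0.422 CPM for *Brsk2*, just outside.

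Thymocytes were taken from 3 WT mice, 3 *Hoil* ΔCd4 mice and 3 *Sharpin* cpdm mice, and each mouse gave 2 sorted CD69+ fractions, 1 with low and 1 with high surface MHC class I (MHC I low and MHC I high). CD69 is a surface marker that appears after positive selection, and surface MHC class I increases as the selected cell matures, which makes the MHC I low cells the earlier and the MHC I high cells the later fraction. Dead cells were gated out, as were cells that carried γδ T-cell receptors or surface markers of natural killer cells (NK1.1), B cells (B220) and myeloid cells (Gr1 and Mac-1), and cells with CD25, CD44 or MHC II. *Hoil* ΔCd4 mice lose *Rbck1*, the gene for the linear ubiquitin ligase subunit HOIL-1, through a Cre recombinase expressed from *Cd4* control elements, which confines the deletion to T-lineage cells that have switched *Cd4* on. *Sharpin* cpdm mice carry the spontaneous cpdm allele of *Sharpin*, which encodes another subunit of the same ligase, in every cell of the body. *Sharpin* itself lies on chromosome 15, outside the segment. The cpdm stock was kept on a C57BL/Ka background and had been crossed to C57BL/6 for few generations, whereas the WT mice were C57BL/6, so loss of SHARPIN and the strain background cannot be told apart in these samples. Ages were not given in the sources used here.

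The segment holds gene families with well-known roles. Its far end carries an imprinted domain, in which *H19*, *Cdkn1c* and several neighbours are read from the maternal chromosome, *Igf2* and the long non-coding RNA *Kcnq1ot1* are read from the paternal one, and *Kcnq1ot1* silences genes around it on the chromosome that makes it. Beside it stands a cluster of TNF receptor superfamily genes, *Tnfrsf26*, *Tnfrsf22* and *Tnfrsf23*, of which the latter pair encode decoy receptors that bind TRAIL without a death domain. Other members include *Fadd*, the adaptor that links death receptors to caspase-8, the tetraspanins *Tspan32*, *Cd81*, *Cd151* and *Tspan4*, and a pair of scavenger receptor genes, *Cd163l1* and *5830411N06Rik*, known from γδ T cells.

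The reference sequence in front of 4 members called with at least a 2-fold difference is shown, a pair near each end of the segment. *Dmbt1* and *Tnfrsf26*, which differed more, had no entry in the promoter table. Each run is the 250 bases before a transcript start in the RefSeq promoter table, on the gene's own strand and 5′ to 3′, from RefSeq build GRCm38.p6. For *Btbd16* and *Htra1* that start is also the outermost start of the gene, whereas the *Tspan32* run reaches into the gene and the *Tnfrsf23* run lies within it, downstream of the gene's outermost start. The sequence belongs to the reference strain and not to the mice studied. Capitals mark a match on either strand to TATAAA, the core motif bound by the TATA-binding protein, or to GGGCGG, the motif of Sp1-type factors.
Btbd16, chr7:130773819-130774068, plus strand: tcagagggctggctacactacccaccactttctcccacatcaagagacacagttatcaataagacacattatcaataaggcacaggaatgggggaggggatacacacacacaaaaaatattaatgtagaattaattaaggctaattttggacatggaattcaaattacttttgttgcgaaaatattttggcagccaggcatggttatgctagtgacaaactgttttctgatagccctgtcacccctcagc
Htra1, chr7:130935953-130936202, plus strand: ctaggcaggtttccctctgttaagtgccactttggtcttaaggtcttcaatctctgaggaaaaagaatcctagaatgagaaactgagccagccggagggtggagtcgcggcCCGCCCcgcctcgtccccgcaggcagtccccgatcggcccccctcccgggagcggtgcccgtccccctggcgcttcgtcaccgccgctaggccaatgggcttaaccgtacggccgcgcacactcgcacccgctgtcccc
Tspan32, chr7:143004796-143005045, plus strand: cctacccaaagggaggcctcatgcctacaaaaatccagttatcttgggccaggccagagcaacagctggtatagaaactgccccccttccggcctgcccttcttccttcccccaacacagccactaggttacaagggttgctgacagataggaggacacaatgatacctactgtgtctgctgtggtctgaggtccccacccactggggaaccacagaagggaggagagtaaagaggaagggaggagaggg
Tnfrsf23, chr7:143685876-143686125, minus strand: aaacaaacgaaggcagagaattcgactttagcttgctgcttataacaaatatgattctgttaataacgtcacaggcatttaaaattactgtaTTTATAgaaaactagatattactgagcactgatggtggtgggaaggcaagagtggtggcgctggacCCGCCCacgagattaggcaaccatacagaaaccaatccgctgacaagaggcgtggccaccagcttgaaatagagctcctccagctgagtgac
The *Htra1* run was the richest in CG dinucleotides, with 22 of them and 64.8% G+C, and held 1 match to GGGCGG. The *Tnfrsf23* run held 1 match to each motif, with 44.8% G+C and 8 CG dinucleotides. No match to either motif was in the *Btbd16* run, at 40.8% G+C, or in the *Tspan32* run, at 55.6% G+C. Among all 32851 promoters in the RefSeq table, 12.4% held a match to TATAAA and 32.7% a match to GGGCGG. A promoter entry existed for 92 of the 113 members.

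Coding sequences of the TNF receptor cluster are shown because a read is 75 bases long, and near-identical copies can then exchange reads. *Tnfrsf22* and *Tnfrsf23* shared 28 runs of 75 coding bases, and the run below is the same in both.
Tnfrsf22, coding bases 421 to 495: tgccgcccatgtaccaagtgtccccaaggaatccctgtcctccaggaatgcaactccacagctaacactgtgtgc
Tnfrsf23, coding bases 391 to 465: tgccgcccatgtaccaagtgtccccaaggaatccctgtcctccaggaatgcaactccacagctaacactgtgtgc
*Tnfrsf26* had no 75-base run in common with either. Over all annotated transcripts, 20.8% of the 75-base runs of *Tnfrsf22* and 13.7% of those of *Tnfrsf23* were found in another gene, against 1.11% for *Tnfrsf26*. How the counting treated reads that match both genes is not given in the sources used here, so the levels of *Tnfrsf22* and *Tnfrsf23* are uncertain. Of the other members described in detail, *Cdkn1c* had 22.1% of its runs in another gene and *Tspan32* 2.96%, and *Dmbt1*, *Htra1*, *Btbd16*, *Plekha1* and *Cd163l1* had none.

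The 18 libraries held between 10577966 and 16266128 counts, with a median of 13979793. *Rbck1* stood at 223 ± 6.08 and 266 ± 2.28 CPM in WT MHC I low and high cells and at 0.544 ± 0.256 and 5.72 ± 2.81 CPM in *Hoil* ΔCd4 cells, and *Sharpin* RNA stood at 91.3 ± 5.76 and 89.7 ± 2.87 CPM in WT against 71.5 ± 4.49 and 73.8 ± 4.25 CPM in *Sharpin* cpdm cells (SD, n = 3 mice each). The 7 thymocyte markers summed to between 3972 and 5223 CPM in each sample, whereas the B-cell markers did not exceed 5.94 CPM and the erythroid markers 1.54 CPM. Among the thymocyte markers, *Cd3e*, *Cd3g* and *Lck* were called higher and *Cd69* lower in *Sharpin* cpdm than in WT MHC I low cells. *Cd69* stood there at 307 to 321 against 383 to 430 CPM. In MHC I high cells *Cd3g*, *Lck* and *Cd8a* were called higher, with *Cd8a* at 846 to 1000 against 745 to 828 CPM. Myeloid and dendritic markers summed to between 2.84 and 10.4 CPM, with more in the MHC I high samples of each genotype. Of their tested genes *Lyz2* alone was called between *Sharpin* cpdm and WT MHC I high cells, at 0.445 to 0.714 against 0 CPM. The epithelial, γδ and natural killer markers are given below. *Xist*, the RNA of the inactive X chromosome, exceeded 1000 CPM in 6 of 6 WT samples but in 2 of 6 samples of each mutant, so the sexes were not balanced between genotypes. With the *Xist* level as a covariate, 31 and 33 members were called in the comparison of *Sharpin* cpdm with WT in MHC I low and high cells, in place of 34 and 31, while 10.8% and 10.7% of all genes were called in place of 12.2% and 8.62%. In sorted pools such as these, fewer cells that express a gene and less RNA in each cell cannot be told apart.

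In MHC I low cells, 34 of the 113 members (30.1%) differed between *Sharpin* cpdm and WT mice at an adjusted p under 0.05, against 12.2% of all genes tested, and in MHC I high cells 31 (27.4%), against 8.62%. These counts come from the comparison that chose the segment, and nothing is read from them. In MHC I low cells 20 were higher in *Sharpin* cpdm mice (background 5.31%) and 14 lower (6.92%), and in MHC I high cells 16 were higher (4.15%) and 15 lower (4.47%). The difference was at least 2-fold for 18 members (15.9%) in MHC I low cells and for 16 (14.2%) in MHC I high cells, where the background was 1.26% and 1.16%. On the rest of chromosome 7, 1.03% and 0.92% of 870 genes reached that size. Between the fractions, which come from the same mice, 23 members were called in the same direction, 12 higher and 11 lower, which was 67.6% of the MHC I low list and 74.2% of the MHC I high list, where over all genes tested the shares were 27.3% and 38.7%. None of the members was called in opposite directions, and only 14 of all 12798 genes tested were, so the 0 is near that share. The median size of the difference over the 113 members was 0.20 and 0.16 on the log2 scale in the 2 fractions, against 0.13 and 0.11 over all genes, and 58 (51.3%) and 60 (53.1%) members differed by less than 0.2, against 66.2% and 71.1% of all genes.

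**Figure D1:**
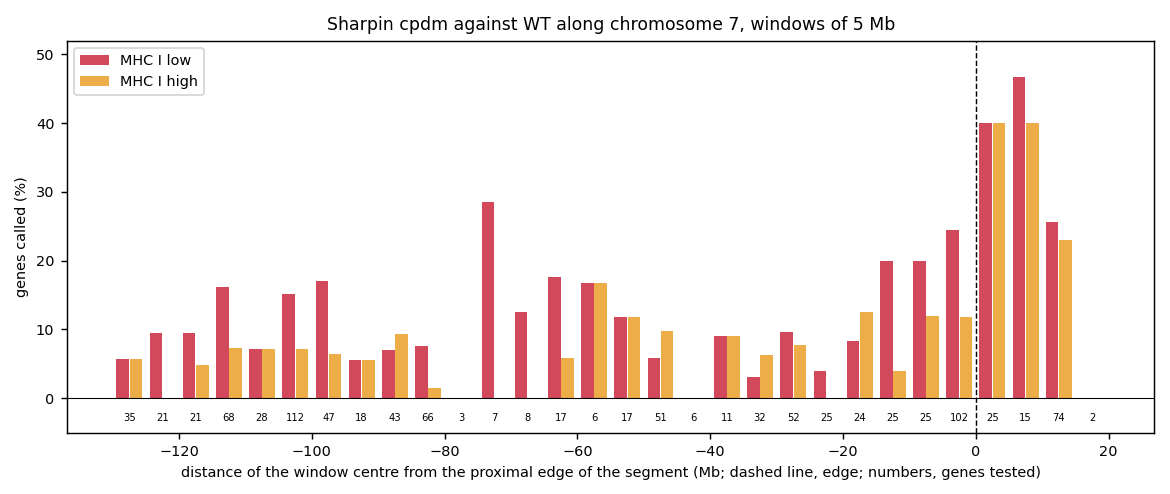
Percentage of tested genes called between Sharpin cpdm and WT mice (adjusted p under 0.05) in successive windows of 5 Mb along chromosome 7, for each fraction, with the number of genes tested under each pair of bars. The window just before the edge held 24.5% and 11.8% called, and the first 3 windows of the segment held between 23% and 46.7%.

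In the 5 Mb before the proximal edge the share of genes called was above that of all genes of chromosome 7 outside the segment. There 25 of 102 genes were called in MHC I low cells and 4 of them reached 2-fold. Over the 870 genes outside the segment, those 102 among them, 12.6% were called. A raised share was not confined to that window. In the windows at 115 to 120 Mb and 120 to 125 Mb 5 of 25 genes each were called. At 55 to 60 Mb 2 of 7 were, while at 105 to 110 Mb 1 of 25 was. In the first 5 Mb inside the segment 10 of 25 genes were called and 5 reached 2-fold. The 3 genes tested just before the edge were *Mcmbp*, *Sec23ip* and *Wdr11*. *Wdr11*, the nearest, differed by 0.019 (SE 0.0762) in MHC I low cells and *Sec23ip* by 0.42 (SE 0.0565). The 3 first genes inside were *Ate1*, which differed by 0.067 (SE 0.0602), *Nsmce4a* by 0.13 (SE 0.0711) and *Tacc2* by 0.56 (SE 0.0691). Fold changes here and below are on the log2 CPM scale, *Sharpin* cpdm minus WT unless another pair is named, with the standard error (SE) of the linear model.

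**Figure D2:**
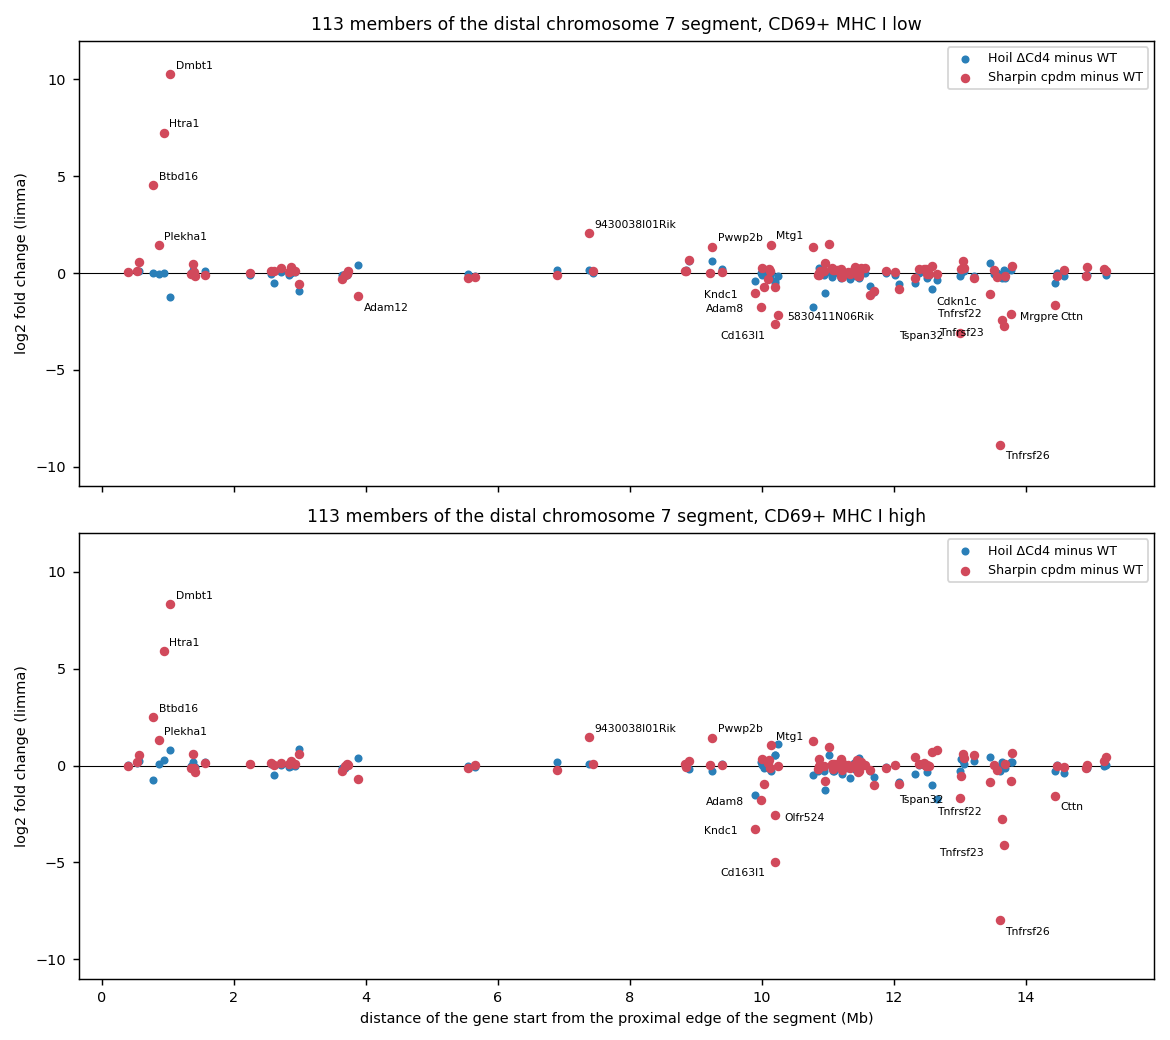
Log2 fold change of each of the 113 members against WT, plotted by the distance of its start from the proximal edge of the segment in Mb, for Sharpin cpdm (red) and Hoil ΔCd4 (blue), in MHC I low cells (top) and MHC I high cells (bottom). Labels mark members called with at least a 2-fold difference in Sharpin cpdm mice in either fraction, shown where the fitted value is at least 1 in size, and fitted values of genes with no counts in a group depend on the prior count. Among the values farthest from 0 are those of Btbd16, Htra1 and Dmbt1 near the proximal edge, above 0, and of Cd163l1, Tspan32, Tnfrsf26 and Tnfrsf23 in the distal portion, below 0.

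Just inside the edge, 4 neighbouring genes were higher in *Sharpin* cpdm mice. *Dmbt1* encodes a secreted scavenger receptor glycoprotein of epithelia. In MHC I low cells it stood at 0.320, 0.192 and 0.0782 CPM in WT mice, 0.145, 0 and 0 CPM in *Hoil* ΔCd4 and 320.4, 286 and 329.9 CPM in *Sharpin* cpdm mice. In MHC I high cells it stood at 1.21, 0.627 and 0.207 CPM in WT mice, 1.44, 0.606 and 0.576 CPM in *Hoil* ΔCd4 and 178, 135 and 167 CPM in *Sharpin* cpdm mice. All 6 *Sharpin* cpdm samples lay far above every WT and *Hoil* ΔCd4 sample, with little spread among the 3 mice, and the log2 fold change was 10.28 (SE 0.525) in the earlier and 8.34 (SE 0.474) in the later fraction. Per kilobase of gene length, the mean level of *Dmbt1* was 0.0315 RPKM in WT and 50.0 RPKM in *Sharpin* cpdm MHC I low cells, the latter close to that of *Tspan32* in WT cells of the fraction, 48.1 RPKM. The 5 epithelial markers summed to between 7.36 and 8.66 CPM in WT and between 6.92 and 11.7 CPM in *Hoil* ΔCd4 samples. In *Sharpin* cpdm samples they summed to between 5.68 and 10.6 CPM. Most of each sum came from *Epcam*, with *Foxn1* and *Krt5* at or near 0 in every sample. Whether epithelial cells had a part in the level of *Dmbt1* was not tested.

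*Htra1*, a secreted serine protease, had no count in any of the 6 WT samples. In MHC I low cells it stood at 0, 0 and 0 CPM in WT mice, 0, 0 and 0 CPM in *Hoil* ΔCd4 and 13.7, 9.90 and 10.4 CPM in *Sharpin* cpdm mice, and in MHC I high cells at 0, 0 and 0 CPM in WT mice, 0.0759, 0 and 0 CPM in *Hoil* ΔCd4 and 6.47, 3.24 and 4.78 CPM in *Sharpin* cpdm mice. All 6 *Sharpin* cpdm samples were clear of the rest, and a floor of 3 counts per WT library puts the level at least 55.0-fold higher in the earlier fraction and at least 22.7-fold higher in the later one. *Btbd16*, which encodes a BTB domain protein, stood in MHC I low cells at 0.128, 0.192 and 0.0782 CPM in WT mice, 0.363, 0 and 0.136 CPM in *Hoil* ΔCd4 and 4.46, 4.99 and 3.76 CPM in *Sharpin* cpdm mice. Those WT libraries held 2, 3 and 1 counts, so the ratio of summed counts was 32.3 with an exact 95% counting interval from 14.5 to 89.3. Later in maturation, in MHC I high cells, *Btbd16* stood at 1.29, 0.314 and 0.483 CPM in WT mice, 0.911, 0.152 and 0.288 CPM in *Hoil* ΔCd4 and 3.58, 3.18 and 4.50 CPM in *Sharpin* cpdm mice. The separation was kept there but was narrower, at 2.49 (SE 0.438). Neither *Htra1* nor *Btbd16* would have passed the expression limit without the *Sharpin* cpdm samples.

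*Plekha1*, which encodes a phosphoinositide-binding adaptor (TAPP1), lies between *Btbd16* and *Htra1* and was the most abundant of the 4 in WT cells. It stood in MHC I low cells at 59.2, 67.0 and 58.1 CPM in WT mice, 64.8, 59.9 and 54.8 CPM in *Hoil* ΔCd4 and 178, 161 and 155 CPM in *Sharpin* cpdm mice. The levels in MHC I high cells were 86.4, 97.0 and 91.3 CPM in WT mice, 97.0, 97.1 and 92.1 CPM in *Hoil* ΔCd4 and 233, 224 and 228 CPM in *Sharpin* cpdm mice. The groups of *Sharpin* cpdm and WT samples did not overlap, and the difference was 1.43 (SE 0.0631) and 1.32 (SE 0.0570). *Tacc2*, a centrosome protein gene on the proximal side of these 4, was higher by a smaller amount in both fractions, with 0.56 (SE 0.0691) and 0.54 (SE 0.0625).

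**Figure D3:**
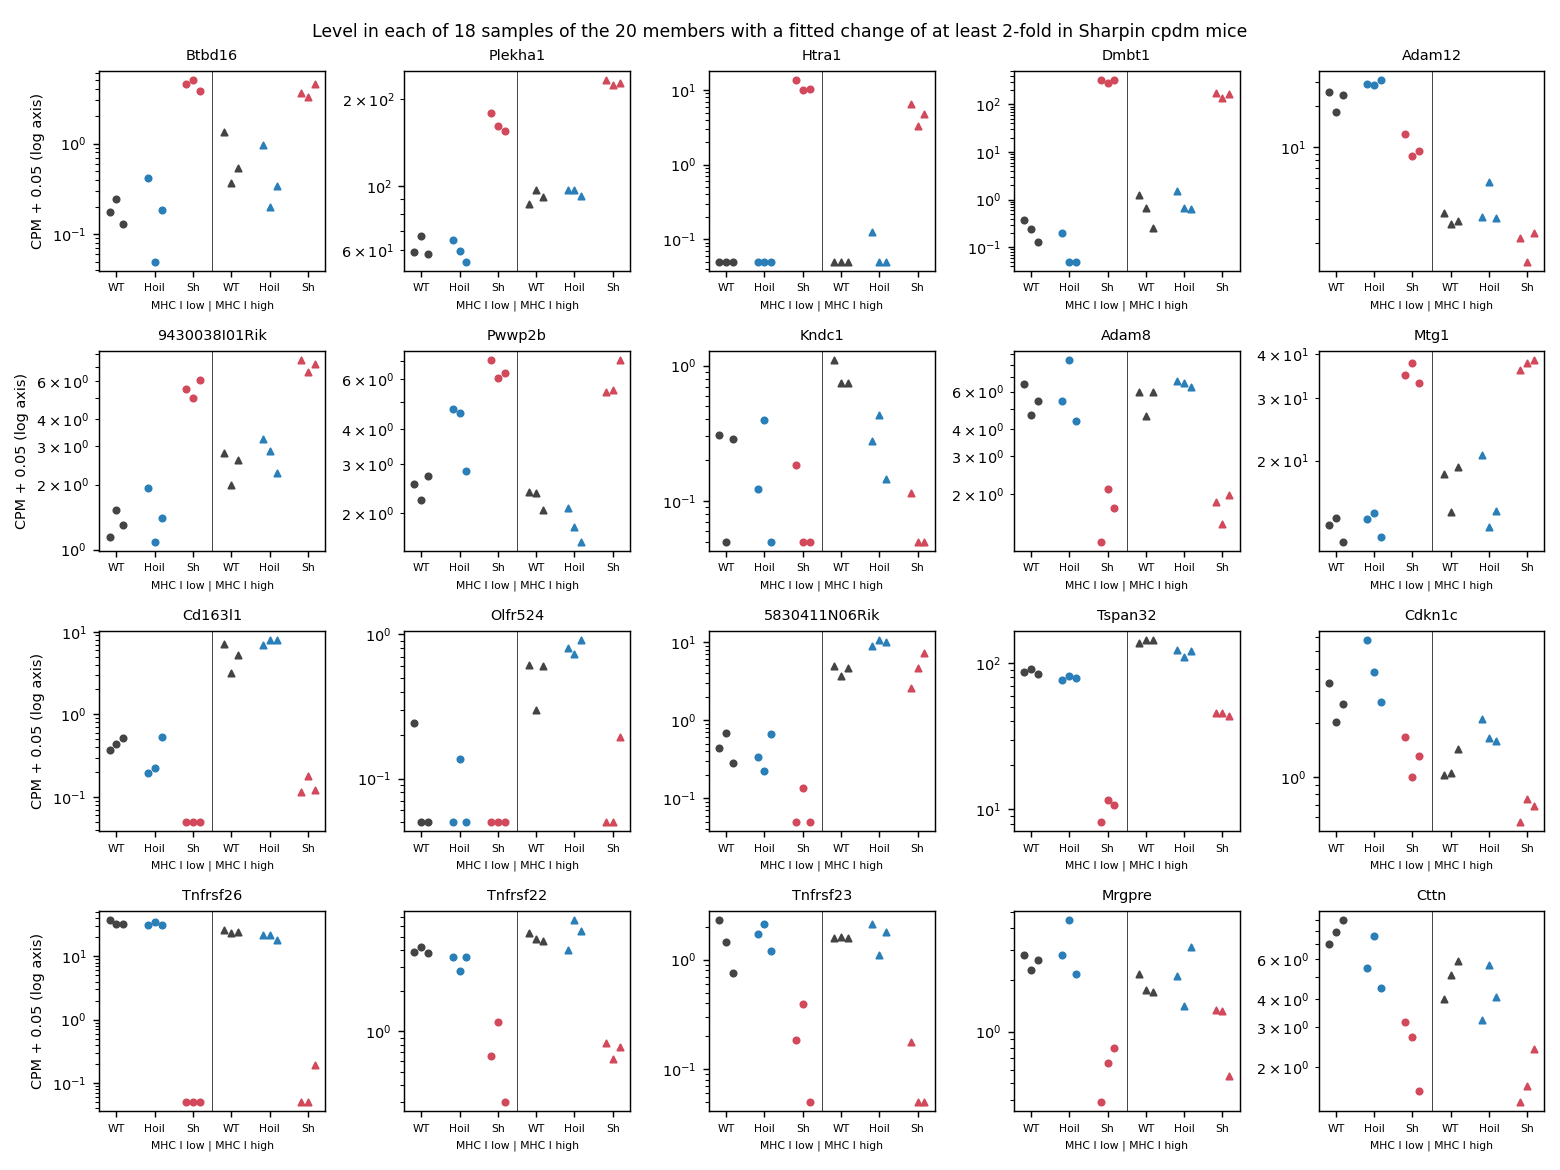
CPM plus 0.05, on a log axis, in each of the 18 samples for the 20 members called with at least a 2-fold difference between Sharpin cpdm and WT mice in either fraction. Each point is 1 mouse (circles, MHC I low; triangles, MHC I high; Sh, Sharpin cpdm). The WT and Hoil ΔCd4 points lie close together in most panels while the Sharpin cpdm points stand apart in at least 1 fraction. The called difference from WT is upwards for 7 members and downwards for 13.

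The next stretch held smaller differences. The 17 members from *2310057M21Rik* to *Dhx32* held no called difference of 2-fold, but 4 were called in each fraction (background 12.2% and 8.62%). Their median size was 0.10 and 0.13 in MHC I low and high cells, against 0.13 and 0.11 over all genes. *Pstk*, a kinase that acts on the seryl form of selenocysteine tRNA, was higher by 0.47 (SE 0.124) and 0.58 (SE 0.112), but 55% of its 75-base runs were also found in another gene, mainly the overlapping *Ikzf5*, and its level is uncertain. *Abraxas2*, a subunit of the BRISC deubiquitinase, was higher by 0.32 (SE 0.0726) and 0.24 (SE 0.0656), and *Edrf1* was lower, at −0.31 (SE 0.0590) and −0.30 (SE 0.0534).

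Members of the ADAM metalloprotease family were lower. *Adam12* stood in MHC I low cells at 25.3, 18.2 and 24.3 CPM in WT mice, 29.3, 28.6 and 31.3 CPM in *Hoil* ΔCd4 and 12.6, 8.52 and 9.37 CPM in *Sharpin* cpdm mice. In MHC I high cells it stood at 3.23, 2.70 and 2.83 CPM in WT mice, 3.04, 5.53 and 2.98 CPM in *Hoil* ΔCd4 and 2.11, 1.40 and 2.28 CPM in *Sharpin* cpdm mice. *Sharpin* cpdm samples lay below the others in both fractions, at −1.19 (SE 0.209) and −0.68 (SE 0.189). *Adam8* stood at 6.47, 4.60 and 5.40 CPM in WT mice, 5.37, 8.39 and 4.34 CPM in *Hoil* ΔCd4 and 1.15, 2.07 and 1.67 CPM in *Sharpin* cpdm mice in MHC I low cells, and at 5.90, 4.58 and 5.93 CPM in WT mice, 6.68, 6.52 and 6.24 CPM in *Hoil* ΔCd4 and 1.79, 1.40 and 1.93 CPM in *Sharpin* cpdm mice in MHC I high cells. Its differences were alike in the 2 fractions, −1.73 (SE 0.226) and −1.77 (SE 0.204).

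Between *Adam12* and *Adam8*, 3 members were far from WT. The uncharacterised *9430038I01Rik* stood in MHC I low cells at 1.09, 1.47 and 1.25 CPM in WT mice, 1.89, 1.04 and 1.36 CPM in *Hoil* ΔCd4 and 5.47, 4.99 and 6.02 CPM in *Sharpin* cpdm mice, and differed by 2.05 (SE 0.222) there and by 1.45 (SE 0.201) in MHC I high cells. *Pwwp2b*, a chromatin-reader gene, stood in MHC I low cells at 2.50, 2.17 and 2.66 CPM in WT mice, 4.65, 4.50 and 2.78 CPM in *Hoil* ΔCd4 and 6.96, 6.03 and 6.27 CPM in *Sharpin* cpdm mice and in MHC I high cells at 2.34, 2.32 and 2.00 CPM in WT mice, 2.05, 1.74 and 1.54 CPM in *Hoil* ΔCd4 and 5.38, 5.47 and 6.99 CPM in *Sharpin* cpdm mice. The *Hoil* ΔCd4 samples lay between WT and *Sharpin* cpdm in MHC I low cells. *Kndc1* was near the limit of detection everywhere, and the WT MHC I high libraries held 34 counts in all against 1 in *Sharpin* cpdm libraries, a ratio of 36.0 with an exact 95% counting interval from 6.04 to 1464. The *Hoil* ΔCd4 MHC I high libraries held 3, 5 and 1 counts, a mean of 0.234 CPM against 0.810 CPM in WT.

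Beyond *Adam8* the direction changed from gene to gene. *Zfp511*, which encodes a zinc finger protein, was lower, at −0.72 (SE 0.0917) and −0.97 (SE 0.0829), while *Tubgcp2*, which overlaps it and encodes a subunit of the γ-tubulin complex, was higher by 0.26 (SE 0.0737) and 0.35 (SE 0.0666). Reads in the overlap of the pair could not be assigned without knowing the strand setting. *Mtg1*, a mitochondrial ribosome GTPase gene, stood in MHC I low cells at 13.1, 13.7 and 11.7 CPM in WT mice, 13.6, 14.2 and 12.1 CPM in *Hoil* ΔCd4 and 34.9, 37.7 and 33.2 CPM in *Sharpin* cpdm mice. The levels in MHC I high cells were 18.3, 14.2 and 19.2 CPM in WT mice, 20.7, 12.9 and 14.3 CPM in *Hoil* ΔCd4 and 36.2, 37.8 and 38.5 CPM in *Sharpin* cpdm mice. Every *Sharpin* cpdm sample was above every other sample, by 1.47 (SE 0.124) and 1.05 (SE 0.112).

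The 2 scavenger receptor genes were both called lower in the earlier fraction, on few counts, and *Cd163l1* alone was called lower in the later one. *Cd163l1* stood in MHC I low cells at 0.320, 0.384 and 0.469 CPM in WT mice, 0.145, 0.173 and 0.475 CPM in *Hoil* ΔCd4 and 0, 0 and 0 CPM in *Sharpin* cpdm mice, and in MHC I high cells at 7.11, 3.14 and 5.17 CPM in WT mice, 6.83, 7.88 and 7.87 CPM in *Hoil* ΔCd4 and 0.0640, 0.127 and 0.0714 CPM in *Sharpin* cpdm mice. *Sharpin* cpdm libraries held 0 counts in the earlier fraction and 1, 2 and 1 in the later one, and summed counts were 56.4-fold lower than in WT in the later fraction, with an exact 95% counting interval from 21.7 to 209.0. The adjacent *5830411N06Rik* stood in MHC I low cells at 0.384, 0.640 and 0.235 CPM in WT mice, 0.290, 0.173 and 0.611 CPM in *Hoil* ΔCd4 and 0, 0.0861 and 0 CPM in *Sharpin* cpdm mice, but in MHC I high cells at 4.93, 3.64 and 4.55 CPM in WT mice, 8.73, 10.5 and 9.79 CPM in *Hoil* ΔCd4 and 2.50, 4.58 and 7.28 CPM in *Sharpin* cpdm mice. Summed counts of *5830411N06Rik* in the earlier fraction were 1 in *Sharpin* cpdm and 19 in WT libraries. That is a ratio of 16.6, with an exact 95% counting interval from 2.63 to 688. The *Sharpin* cpdm samples of the later fraction spread across the WT range and beyond it, with a difference of −0.036 (SE 0.359). The 3 γδ and natural killer markers in the table, mostly *Trdc*, summed to between 23.7 and 29.3 CPM in WT MHC I high samples and between 24.8 and 29.2 CPM in *Sharpin* cpdm ones, while *Cd163l1* differed between them. In MHC I low samples they summed to less, between 10.8 and 14.5 CPM in WT and between 12.5 and 15.4 CPM in *Hoil* ΔCd4 mice, and *Hoil* ΔCd4 MHC I high samples had the most, between 30.7 and 41.9 CPM, where both genes had their highest mean level. Their part in the levels of both genes was not tested. *Olfr524*, an olfactory receptor gene, lies inside *Cd163l1* (chr7:140201386-140205279 within chr7:140197218-140231145) and was under 1 CPM in every sample. The annotated transcripts of the pair had no 75-base run in common. Unspliced reads of *Cd163l1* that fall in *Olfr524* could not be told apart without knowing the strand setting.

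The longest run without a called 2-fold difference held 45 members, from *Syce1* to *Igf2*, with starts from 140.777 to 142.651 Mb. Within it 5 of 45 members were called in MHC I low cells (background 12.2%) and 0 in MHC I high cells (8.62%). The median size was 0.15 and 0.11, against 0.13 and 0.11 over all genes. The 5 were *Gatd1*, *Ap2a2*, *Chid1*, *Ctsd* and *Lsp1*, all higher, with the largest value for *Gatd1*, 0.32 (SE 0.0730). *Ctsd* encodes the lysosomal protease cathepsin D and *Lsp1* an actin-binding protein of leukocytes. This run includes *Hras*, the small GTPase, at 0.19 (SE 0.0762), and *Sigirr*, a restraining receptor of interleukin-1 signalling, at 0.14 (SE 0.0613), neither of which was called.

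In the imprinted domain, 18 genes were listed, 11 were members, and 2 were higher and 4 lower in *Sharpin* cpdm MHC I low cells, with 3 higher and 4 lower in MHC I high cells. The background was 5.31% higher and 6.92% lower in the earlier fraction and 4.15% and 4.47% in the later one. The list holds *Tnfrsf22* and *Tnfrsf23*, both lower and described with their cluster below, and without them 2 of 9 were lower in each fraction. *Tspan32*, a tetraspanin of blood cells, was the most abundant of those that were lower. It stood in MHC I low cells at 87.7, 91.6 and 84.4 CPM in WT mice, 77.0, 81.9 and 79.1 CPM in *Hoil* ΔCd4 and 8.18, 11.6 and 10.7 CPM in *Sharpin* cpdm mice. In MHC I high cells it stood at 138, 144 and 144 CPM in WT mice, 123, 110.4 and 121 CPM in *Hoil* ΔCd4 and 45.4, 45.7 and 43.8 CPM in *Sharpin* cpdm mice. The *Sharpin* cpdm samples did not overlap with the others, and the difference was −3.10 (SE 0.0834) in the earlier fraction but −1.66 (SE 0.0754) in the later one. Its neighbour *Cd81*, which encodes a tetraspanin co-receptor of lymphocytes, was higher, by 0.61 (SE 0.0928) and 0.60 (SE 0.0839). The other 2 tetraspanins in the list, *Cd151* and *Tspan4*, were not called in either fraction.

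*Kcnq1ot1* and *Cdkn1c*, one of the genes it silences on the paternal chromosome, were both detected. *Kcnq1ot1* stood in MHC I low cells at 40.1, 46.8 and 41.0 CPM in WT mice, 38.8, 32.1 and 43.7 CPM in *Hoil* ΔCd4 and 28.0, 41.9 and 34.5 CPM in *Sharpin* cpdm mice, and in MHC I high cells at 32.1, 18.6 and 22.7 CPM in WT mice, 29.3, 25.6 and 29.9 CPM in *Hoil* ΔCd4 and 34.2, 35.8 and 34.8 CPM in *Sharpin* cpdm mice. The difference was −0.26 (SE 0.165) in the earlier fraction, not called, and 0.55 (SE 0.149) in the later one. *Cdkn1c*, the cyclin-dependent kinase inhibitor p57, stood in MHC I low cells at 3.27, 1.98 and 2.50 CPM in WT mice, 5.74, 3.81 and 2.58 CPM in *Hoil* ΔCd4 and 1.62, 0.947 and 1.25 CPM in *Sharpin* cpdm mice, and in MHC I high cells at 0.970, 1.00 and 1.38 CPM in WT mice, 2.05, 1.59 and 1.54 CPM in *Hoil* ΔCd4 and 0.512, 0.699 and 0.642 CPM in *Sharpin* cpdm mice. It was lower, at −1.08 (SE 0.300) and −0.86 (SE 0.271), although these calls did not survive several other ways of processing. *H19* and *Igf2*, at the other end of the domain, were spread widely within each genotype and were not called, with 0.35 (SE 0.634) and −0.041 (SE 0.679) in MHC I low cells.

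The TNF receptor cluster was lower as a block of 3 genes. *Tnfrsf26* stood in MHC I low cells at 37.3, 32.3 and 32.4 CPM in WT mice, 31.5, 34.6 and 31.0 CPM in *Hoil* ΔCd4 and 0, 0 and 0 CPM in *Sharpin* cpdm mice. The levels in MHC I high cells were 25.8, 23.7 and 24.4 CPM in WT mice, 21.5, 21.4 and 18.3 CPM in *Hoil* ΔCd4 and 0, 0 and 0.143 CPM in *Sharpin* cpdm mice. *Sharpin* cpdm libraries held no count in MHC I low cells and 0, 0 and 2 counts in MHC I high cells, against 1050 counts over the 3 WT MHC I high libraries, a ratio of 556 with an exact 95% counting interval from 154 to 4600. *Tnfrsf22* stood in MHC I low cells at 3.84, 4.16 and 3.75 CPM in WT mice, 3.49, 2.77 and 3.53 CPM in *Hoil* ΔCd4 and 0.608, 1.12 and 0.251 CPM in *Sharpin* cpdm mice, and was lower, at −2.44 (SE 0.303) and −2.74 (SE 0.274). *Tnfrsf23* stood in MHC I low cells at 2.24, 1.41 and 0.704 CPM in WT mice, 1.67, 2.08 and 1.15 CPM in *Hoil* ΔCd4 and 0.135, 0.344 and 0 CPM in *Sharpin* cpdm mice, and was lower, at −2.71 (SE 0.520) in that fraction. In WT MHC I low cells the 3 receptors stood at 11.4, 1.72 and 0.442 RPKM in that order. The 2 death adaptor genes of the list were not called. *Fadd* stood in MHC I low cells at 12.7, 11.4 and 12.7 CPM in WT mice, 11.5, 9.34 and 12.4 CPM in *Hoil* ΔCd4 and 14.0, 14.6 and 13.0 CPM in *Sharpin* cpdm mice, and *Pidd1*, which encodes a platform of the p53 and caspase-2 response, differed by 0.15 (SE 0.105).

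Past the receptor cluster, 3 further members were far from WT or partly so. *Mrgpre*, a G-protein-coupled receptor gene of sensory neurons, stood in MHC I low cells at 2.75, 2.24 and 2.58 CPM in WT mice, 2.76, 4.41 and 2.10 CPM in *Hoil* ΔCd4 and 0.338, 0.603 and 0.753 CPM in *Sharpin* cpdm mice. It was lower, at −2.12 (SE 0.358) there. *Cttn*, which encodes the actin-binding protein cortactin, stood in MHC I low cells at 6.98, 7.93 and 8.92 CPM in WT mice, 5.45, 7.61 and 4.41 CPM in *Hoil* ΔCd4 and 3.11, 2.67 and 1.51 CPM in *Sharpin* cpdm mice and was lower, at −1.66 (SE 0.251) and −1.57 (SE 0.226). *Nadsyn1*, an enzyme of NAD synthesis, was higher in MHC I high cells by 0.62 (SE 0.111). The last 6 members, from *Ppfia1* to *Smim38*, held no call in either fraction (background 12.2% and 8.62%). *Ccnd1*, the cyclin D1 gene, was among them at 0.33 (SE 0.314).

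The *Hoil* ΔCd4 comparison did not enter the choice of the segment and was tested. In MHC I low cells 0 of 113 members were called by limma against WT (background 0.985%), with 6 at an unadjusted p under 0.05, and edgeR and DESeq2 gave 0 as well. In MHC I high cells 7 members (6.19%) were called against a background of 6.65%, 1 higher (3.84%) and 6 lower (2.81%). Of the 20 members far from WT in *Sharpin* cpdm mice, 0 were called in MHC I low *Hoil* ΔCd4 cells, and *Tspan32* alone in MHC I high cells. The median size over the 20 was 0.17 and 0.28 on the log2 scale, against 2.08 and 1.72 in *Sharpin* cpdm mice, where the values chose them and where the WT samples are the same.

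*Tmem80*, a ciliary membrane protein gene, fell most among the 7. It stood in MHC I high cells at 42.9, 34.3 and 38.1 CPM in WT mice, 27.5, 23.0 and 25.2 CPM in *Hoil* ΔCd4 and 33.7, 34.9 and 39.5 CPM in *Sharpin* cpdm mice. No *Hoil* ΔCd4 sample reached the WT range, and the log2 fold change was −0.63 (SE 0.0857, adjusted p = 1.92e-05). *Sigirr* stood in MHC I high cells at 115, 97.9 and 109 CPM in WT mice, 96.7, 85.8 and 84.4 CPM in *Hoil* ΔCd4 and 112, 111 and 117 CPM in *Sharpin* cpdm mice. It changed by −0.31 (SE 0.0604, adjusted p = 0.00172), and *Tspan32* by −0.28 (SE 0.0821, adjusted p = 0.035), a change much smaller than its difference in *Sharpin* cpdm mice. *Pgghg*, which cleaves glucose from collagen, changed by −0.30 (SE 0.0701, adjusted p = 0.00775) and *Bet1l*, a Golgi SNARE gene, by −0.30 (SE 0.0829, adjusted p = 0.025). *Tacc2* was the 1 member that rose, by 0.24 (SE 0.0681, adjusted p = 0.0318). Leaving out WT mouse 1 or 3 reduced the 7 calls to 1. The calls of *Bet1l*, *Pgghg* and *Tacc2* were also lost with edgeR and with DESeq2.

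Against *Hoil* ΔCd4 in place of WT, 29 members (25.7%) were called in MHC I low *Sharpin* cpdm cells (background 9.48%) and 32 (28.3%) in MHC I high cells (6.73%), and this comparison shares its *Sharpin* cpdm samples with the one that chose the segment. Side by side, *Plekha1* was higher by 1.46 (SE 0.0711) against *Hoil* ΔCd4 and by 1.43 (SE 0.0631) against WT in MHC I low cells. *Tspan32* was lower, at −2.95 (SE 0.0940) and −3.10 (SE 0.0834). *Cttn* was lower, at −1.16 (SE 0.283) and −1.66 (SE 0.251).

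Maturation, the later against the earlier fraction, was compared within mice, and its calls were tested in each genotype. In WT mice 60 members (53.1%) were called, near the background of 54.4%, with 36 higher (27.5%) and 24 lower (26.8%) in the later fraction. In *Hoil* ΔCd4 mice 44 (38.9%; background 45.3%) were called, 19 higher (23.5%) and 25 lower (21.7%). In *Sharpin* cpdm mice 60 (53.1%; background 54.6%) were called, 29 higher (27.2%) and 31 lower (27.4%). Between WT and *Sharpin* cpdm, whose samples are separate, 42 members were called in the same direction, 70.0% of each list, where over all genes the shares were 77% and 76.6%. Between WT and *Hoil* ΔCd4 36 were, 60.0% of the WT list and 81.8% of the *Hoil* ΔCd4 list, where over all genes the shares were 70.6% and 84.8%. No member was called in opposite directions, against 34 and 8 of all genes. Leaving out WT mouse 3 reduced the WT count to 38.

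*Tacc2*, *Adam12*, *Ptpre* and *Cd81* fell on maturation in each genotype. *Tacc2* stood at 208, 229 and 192 CPM in MHC I low and 56.0, 68.9 and 60.5 CPM in MHC I high cells of WT mice, and fell with log2 fold changes of −1.77 (SE 0.0569, adjusted p = 1.08e-21), −1.63 (SE 0.0699, adjusted p = 3.12e-18) and −1.79 (SE 0.0596, adjusted p = 2.71e-21) in WT, *Hoil* ΔCd4 and *Sharpin* cpdm mice in turn. *Adam12* changed by −2.94 (SE 0.172, adjusted p = 3.90e-14) in WT and by −2.42 (SE 0.180, adjusted p = 6.02e-12) in *Sharpin* cpdm mice, in which it was already lower before the transition. *Ptpre*, a receptor-type tyrosine phosphatase gene, changed by −0.80 (SE 0.0541, adjusted p = 8.58e-14) in WT, and *5830432E09Rik*, which lies within it, by −1.27 (SE 0.139, adjusted p = 3.88e-09). *Cd81* changed by −0.76 (SE 0.0763, adjusted p = 7.26e-09), by −0.66 (SE 0.0938, adjusted p = 2.56e-06) and by −0.76 (SE 0.0801, adjusted p = 1.50e-08).

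Among those that rose, *Plekha1* and *Lsp1* did so in each genotype. *Plekha1* rose by 0.58 (SE 0.0519, adjusted p = 4.94e-11) in WT and 0.46 (SE 0.0544, adjusted p = 1.44e-08) in *Sharpin* cpdm mice, while *Lsp1* rose by 0.46 (SE 0.0461, adjusted p = 5.05e-10) and 0.38 (SE 0.0483, adjusted p = 5.52e-08). *Tspan32* rose by 0.70 (SE 0.0686, adjusted p = 6.00e-10) in WT but by 2.14 (SE 0.0719) in *Sharpin* cpdm mice, from the low start given above. That start is among the values that chose the segment, so the rise in *Sharpin* cpdm mice is given without a p-value. The difference between *Sharpin* cpdm and WT was itself different in the 2 fractions for 7 members by limma's interaction term (background 3.13%), 3 with a higher value in the later fraction (2.2%) and 4 with a lower one (0.93%), against 0 members for *Hoil* ΔCd4 (0.398%). The 7 come from the comparison that chose the segment, and they became 1 with edgeR, 3 with DESeq2, 3 without the mouse as a block and 3 without WT mouse 2 or 3 or *Sharpin* cpdm mouse 1 or 3. The scavenger receptor gene *5830411N06Rik* rose by 3.34 (SE 0.326) in WT, 4.59 (SE 0.401) in *Hoil* ΔCd4 and 5.45 (SE 0.342) in *Sharpin* cpdm mice. The γδ and natural killer markers were higher in the later fraction too, as given above. *Cd163l1* rose by 3.51 (SE 0.339) in WT and 4.60 (SE 0.417) in *Hoil* ΔCd4 mice. Its *Sharpin* cpdm libraries had 0 counts in the earlier and 4 in the later fraction in all. *Cd163l1* reached 0.5 CPM in MHC I high samples alone, and *5830411N06Rik* passed the expression limit only through its MHC I high samples. The limit therefore favoured a rise, and both genes are given without a p-value. *Oat*, which encodes ornithine aminotransferase, rose by 0.58 (SE 0.0817, adjusted p = 6.34e-07) in *Hoil* ΔCd4 mice, and *Pidd1* by 0.70 (SE 0.0907, adjusted p = 1.09e-07) in *Sharpin* cpdm mice, where *Nap1l4*, a nucleosome assembly gene, changed by −0.47 (SE 0.0454, adjusted p = 2.38e-10).

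**Figure D4:**
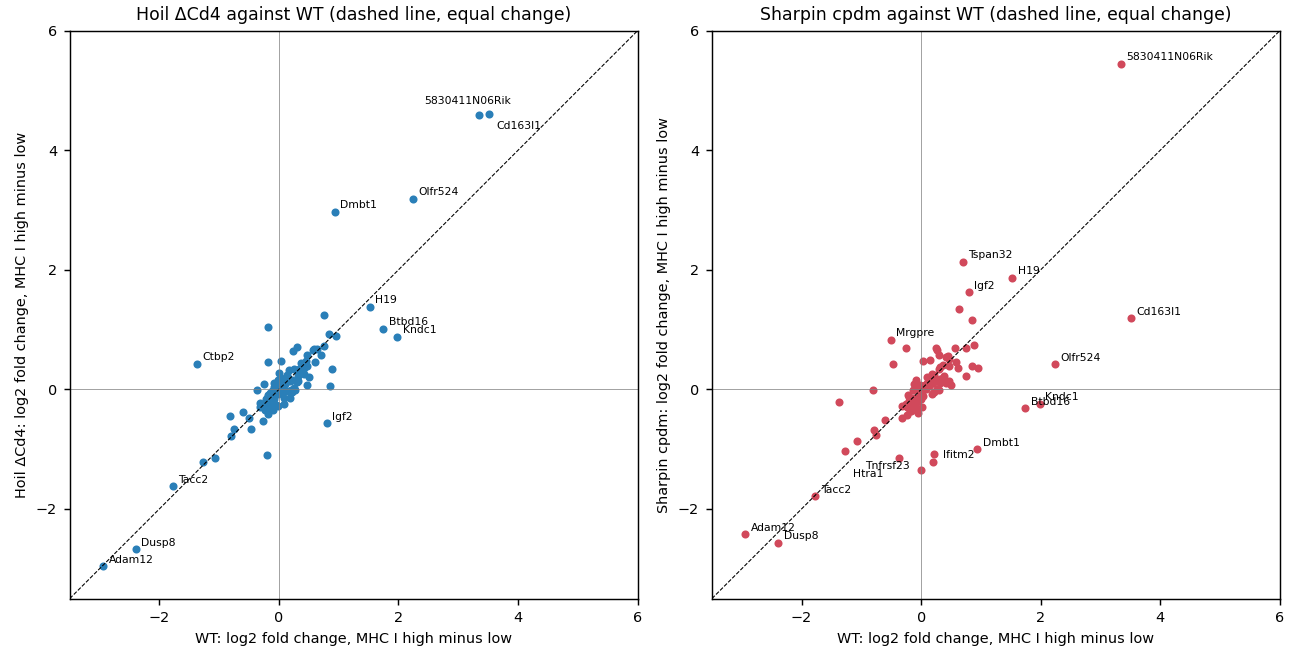
Log2 fold change of the later (MHC I high) over the earlier (MHC I low) fraction for each of the 113 members in WT mice (horizontal axis) against that in Hoil ΔCd4 mice (left) and Sharpin cpdm mice (right), with the line of equal change. Most members lie near the line in both panels, and 5830411N06Rik and Tspan32 lie above it and Cd163l1, Btbd16 and Kndc1 lie below it in Sharpin cpdm mice.

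By role, counts of calls between *Sharpin* cpdm and WT are given for the earlier fraction and then the later one, against a background of 5.31% higher and 6.92% lower, and of 4.15% and 4.47%. Of 18 mitochondrial and metabolic enzyme members, 3 were higher and 0 lower in *Sharpin* cpdm MHC I low cells, with a median log2 fold change of 0.11 against 0.01 over all genes, and in WT maturation 8 rose and 3 fell (background 27.5% and 26.8%). In *Sharpin* cpdm MHC I high cells 3 of them were higher and 1 lower. Of 12 members in transcription, translation and protein turnover, 0 were higher in both fractions, and 1 and then 2 were lower. Of 8 in genome maintenance and mitosis, 2 were higher in each fraction and 0 lower. Of 10 in proteases, adhesion and cytoskeleton, 4 and then 2 were higher and 3 were lower in each. Of 10 kinase, phosphatase and small GTPase members, 1 was higher in each fraction, and 1 and then 0 were lower. Of 5 in vesicle and membrane traffic, 3 and then 1 were higher and 0 lower. None of the 3 interferon-induced transmembrane members, *Ifitm2*, *Ifitm3* and *Ifitm10*, was called between *Sharpin* cpdm and WT, although *Ifitm3* differed by 1.48 (SE 0.548) in MHC I low cells with a wide error. Neither *Sigirr* nor *Tollip*, which restrain Toll and interleukin-1 receptors, was called there.

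The spread between mice was not unusual in the segment. The median SD between mice, on the log2 CPM scale, was between 0.10 and 0.15 for the members in the 6 groups and between 0.10 and 0.13 for all genes tested, and in 1 in 10 members it exceeded values between 0.49 and 0.60. The wide ones were rare transcripts such as *Igf2*, *H19* and *Syce1*.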

How the data were processed

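RNA of 2 CD69+ fractions of sorted thymocytes from 9 mice was sequenced as single-end reads of 75 bases. The authors aligned reads to mm10 with the subread aligner and deposited raw gene-level counts from featureCounts with its inbuilt RefSeq annotation, and the strand and multi-mapping settings and versions are not given in the sources used here. The deposited files list counts and gene length. Genes were matched by Entrez identifier to RefSeq positions on GRCm38.p6, which placed 25275 of 27179 genes, and the other 1904 held 0.655% of counts. Genes that reached 0.5 CPM in 3 or more samples entered the test, without predicted genes, genes of chromosome Y and *Xist*, which left 12798. Counts were scaled by TMM (edgeR 4.0.16) and log2 CPM were taken after adding a prior count of 1. limma 3.58.1 fitted 6 group means with sample quality weights, the mouse as a random block, an abundance trend and robust empirical Bayes, and p-values were adjusted by Benjamini-Hochberg over all 12798 genes. CPM in the text uses TMM-scaled library sizes, and RPKM divides it by the deposited gene length in kilobases. Samples of a group are separate mice, and values are listed in the order of mouse 1, 2 and 3. The 2 fractions of a mouse are paired by the animal, and their residuals had a consensus correlation of 0.224, with 0.0702 to 0.256 for single mice. A difference is called at an adjusted p under 0.05. Where a group had no count a floor of 3 counts per library was used, and ratios of summed counts have exact binomial 95% intervals, which cover counting error only. Libraries held 10577966 to 16266128 counts, so members under about 1 CPM rest on few counts. Named genes were the members called with at least a 2-fold difference between *Sharpin* cpdm and WT mice, and in each tested comparison up to 5 members in each direction with the smallest p that moved alike in every mouse. Other members in the text were chosen after their values were seen. The members and gene lists were chosen with earlier results of these data known. edgeR's quasi-likelihood test, DESeq2 1.42.0, other filters, scalings and prior counts, and leaving out each mouse were tried as alternatives.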

Additional observations from a re-analysis of the deposited data

Results flagged for a closer look

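The difference between *Sharpin* cpdm and WT mice itself differed between the MHC I low and MHC I high fractions for 7 of the 113 members (6.19%), by the interaction of genotype and fraction in limma, against 3.13% of all genes tested. The 7 became 1 with edgeR, 3 with DESeq2 and 3 without the mouse as a block. The values come from the comparison that chose the segment and are given as a description, as the log2 difference in MHC I high minus that in MHC I low. Higher values stood in the later fraction for the scavenger receptor gene *5830411N06Rik*, at 2.11, for the tetraspanin gene *Tspan32*, at 1.44, and for the imprinting RNA *Kcnq1ot1*, at 0.81. Lower values stood there for *Cd163l1*, at −2.32, and for *Btbd16*, at −2.06. *Gatd1*, at −0.31, and *Ap2a2*, which encodes a subunit of the endocytic adaptor AP-2, at −0.26, were also lower. *Cd163l1* and *5830411N06Rik*, which lie side by side and both rose on maturation in WT mice, had the lowest and the highest of the 7 values. Their levels in *Sharpin* cpdm MHC I low cells were at or near 0 counts, and *Btbd16* had 2, 3 and 1 counts in the WT libraries of that fraction. The fitted values of this pair and of *Btbd16* therefore depend on the prior count.

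The same interaction in *Hoil* ΔCd4 mice called 0 of 113 members by limma (background 0.398%), with 13 at an unadjusted p under 0.05.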

How the results depend on the processing

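Of 76 values of named genes, 72 were called, and 63 of these kept their call and direction under each alternative that gave a value, between 19 and 21 for a gene. None of the 76 reversed. The 9 that lost a call under some alternative were *Cdkn1c* in both fractions, *Adam12* and *Olfr524* in MHC I high cells (*Sharpin* cpdm against WT), and *Bet1l*, *Pgghg*, *Sigirr*, *Tacc2* and *Tspan32* in MHC I high cells (*Hoil* ΔCd4 against WT). Where an alternative moved a count, the cause was not tested. Of the members, the 7 called between *Hoil* ΔCd4 and WT in MHC I high cells became 4 with edgeR, 4 with DESeq2, 4 with no filter on low counts, 11 with at least 10 counts in every sample and 2 without sample quality weights, while the share of all genes called went from 6.65% to 3.16%, 3.78%, 2.56%, 9.61% and 2.45% in turn. The 7 with an interaction of *Sharpin* cpdm and fraction became 1 with edgeR, 3 with DESeq2, 3 with no filter, 4 with at least 10 counts and 4 without weights, and the share of all genes went from 3.13% to 0.234%, 1.05%, 0.826%, 4.6% and 1.98%. The 0 with an interaction of *Hoil* ΔCd4 and fraction became 1 with at least 10 counts and 1 with a prior count of 3, where the share of all genes went from 0.398% to 0.569% and 0.43%. The 29 called between *Sharpin* cpdm and *Hoil* ΔCd4 in MHC I low cells became 19 (share of all genes from 9.48% to 10.9%) with at least 10 counts in every sample, a filter that leaves out members with no counts in a genotype.

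The mouse as a random block rests on the pairing of fractions from 1 animal. Without the block, the 7 interactions with *Sharpin* cpdm became 3 (share of all genes 0.969%), and no other count of calls moved by over 1.5 times. The mouse number 1 to 3 is shared across genotypes by name alone, and as a fixed block it moved no count by over 1.5 times.

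Leaving out each mouse in turn gave 26 to 35 members for *Sharpin* cpdm against WT in MHC I low cells and 23 to 31 in MHC I high cells. Against *Hoil* ΔCd4 it gave 22 to 29 and 21 to 32, with 21 without *Hoil* ΔCd4 mouse 3 or *Sharpin* cpdm mouse 2. *Hoil* ΔCd4 against WT gave 0 to 1 in MHC I low cells, with 1 without WT mouse 3, and 1 to 10 in MHC I high cells, with 1 without WT mouse 1 or 3, 2 without *Hoil* ΔCd4 mouse 2 and 3 without *Hoil* ΔCd4 mouse 3. Maturation gave 38 to 60 in WT, with 38 without WT mouse 3, 33 to 47 in *Hoil* ΔCd4 and 40 to 61 in *Sharpin* cpdm mice. The interaction gave 0 to 1 for *Hoil* ΔCd4, with 1 without WT mouse 2, and 3 to 7 for *Sharpin* cpdm, with 3 without WT mouse 2 or 3 or *Sharpin* cpdm mouse 1 or 3, and 4 without *Sharpin* cpdm mouse 2.

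At 10577966 to 16266128 counts, genes under about 1 CPM, such as *Kndc1*, *Olfr524* and *Muc2*, had few counts in a library, and a difference between groups was detectable there only when large.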
